A study of Homo sapiens with 16 samples.

Results

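The interferon-stimulated and antigen presentation genes were followed in A549, a long-established line from a human lung adenocarcinoma, while TGF-beta drove the cells through an epithelial to mesenchymal transition (EMT). A set of 39 named genes was taken by gene symbol from tables of 57773 genes. Of these, 29 form an antiviral arm (transcription factors, RNA sensors and effectors) and 10 an arm of immunoproteasome subunits, peptide transporter and MHC class I genes. RNA was sequenced at 0, 6, 12, 24, 36, 48, 72 and 96 h of treatment, with 2 libraries per time, 16 in all, numbered replicate 1 and 2 in the labels. All groups are the same cell line, and the 0 h libraries are the start of the course. No untreated library of a later time was used here, so an effect of TGF-beta and an effect of time in culture cannot be told apart. Whether replicates were separate cultures is not in the labels, so the p-values describe the spread between libraries, which can be technical.

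Type I interferons bind receptors on the cell surface that activate the kinases JAK1 and TYK2, which phosphorylate STAT proteins. STAT2 and IRF9 are subunits of a complex that binds interferon-stimulated response elements (ISRE) in promoters, while interferon gamma acts mainly through GAS elements. The antiviral proteins made in response sense, degrade or sequester viral RNA or block virus entry. The same signals raise the immunoproteasome, in which PSMB8, PSMB9 and PSMB10 take the place of the constitutive catalytic subunits PSMB5, PSMB6 and PSMB7. Peptides cut by it are carried by TAP1 and TAP2 into the endoplasmic reticulum and loaded onto MHC class I chains with B2M. In airway and alveolar epithelium these genes are part of the defence against respiratory viruses.

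Promoters of 8 members are shown, those of the 7 members called between late and early libraries, described further on, and that of TAP1, the neighbour of PSMB9. They are RefSeq windows on GRCh38.p14, from 250 bases before to 50 after the start, 5′ to 3′ on the gene's strand. Capitals mark matches on either strand to the ISRE core, searched as GAAA, any 2 bases and GAAA, and in IFI35 a match to the GAS motif TTCNNNGAA. IFI44L lies at chr1:78620198-78620497 and IFI44 at chr1:78649539-78649838, both on the plus strand. ISG20 lies at chr15:88638766-88639065 on the plus strand and PSMB10 at chr16:67936801-67937100 on the minus strand. STAT2 lies at chr12:56360058-56360357 on the minus strand and IFI35 at chr17:43006534-43006833 on the plus strand. PSMB9 lies at chr6:32853942-32854241 on the plus strand, head to head with TAP1 at chr6:32853655-32853954 on the minus strand, so that the windows overlap at their upstream ends.
IFI44L: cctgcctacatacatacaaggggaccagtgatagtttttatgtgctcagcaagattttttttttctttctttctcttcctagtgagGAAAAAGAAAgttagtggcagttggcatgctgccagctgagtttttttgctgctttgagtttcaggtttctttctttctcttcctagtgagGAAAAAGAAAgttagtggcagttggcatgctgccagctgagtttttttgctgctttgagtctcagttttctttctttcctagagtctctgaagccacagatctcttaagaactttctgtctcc
IFI44: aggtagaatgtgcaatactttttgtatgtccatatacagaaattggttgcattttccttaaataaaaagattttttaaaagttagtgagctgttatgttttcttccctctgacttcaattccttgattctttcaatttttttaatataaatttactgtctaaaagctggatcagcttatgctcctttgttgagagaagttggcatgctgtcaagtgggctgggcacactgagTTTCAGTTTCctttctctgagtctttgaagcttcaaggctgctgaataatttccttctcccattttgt
STAT2: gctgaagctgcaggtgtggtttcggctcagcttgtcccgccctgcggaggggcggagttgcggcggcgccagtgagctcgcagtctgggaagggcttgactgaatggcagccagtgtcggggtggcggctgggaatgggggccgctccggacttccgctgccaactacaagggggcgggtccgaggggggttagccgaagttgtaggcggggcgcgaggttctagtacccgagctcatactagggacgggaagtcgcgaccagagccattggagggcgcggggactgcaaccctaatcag
ISG20: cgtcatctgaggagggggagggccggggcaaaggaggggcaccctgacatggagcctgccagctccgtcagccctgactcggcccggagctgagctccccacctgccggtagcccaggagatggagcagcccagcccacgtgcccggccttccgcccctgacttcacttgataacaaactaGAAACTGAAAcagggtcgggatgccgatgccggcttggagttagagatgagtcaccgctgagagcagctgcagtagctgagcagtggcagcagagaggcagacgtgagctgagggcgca
IFI35: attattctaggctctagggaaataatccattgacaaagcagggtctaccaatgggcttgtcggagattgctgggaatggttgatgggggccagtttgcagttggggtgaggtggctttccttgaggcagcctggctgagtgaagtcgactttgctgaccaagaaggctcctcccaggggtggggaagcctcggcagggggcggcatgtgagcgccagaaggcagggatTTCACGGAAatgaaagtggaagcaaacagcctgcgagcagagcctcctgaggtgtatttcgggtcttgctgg
PSMB10: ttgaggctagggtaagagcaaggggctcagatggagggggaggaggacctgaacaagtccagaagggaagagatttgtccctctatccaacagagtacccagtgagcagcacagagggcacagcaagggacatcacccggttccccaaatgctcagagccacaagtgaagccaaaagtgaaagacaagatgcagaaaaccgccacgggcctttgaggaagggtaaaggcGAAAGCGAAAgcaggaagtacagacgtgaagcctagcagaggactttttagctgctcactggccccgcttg
PSMB9: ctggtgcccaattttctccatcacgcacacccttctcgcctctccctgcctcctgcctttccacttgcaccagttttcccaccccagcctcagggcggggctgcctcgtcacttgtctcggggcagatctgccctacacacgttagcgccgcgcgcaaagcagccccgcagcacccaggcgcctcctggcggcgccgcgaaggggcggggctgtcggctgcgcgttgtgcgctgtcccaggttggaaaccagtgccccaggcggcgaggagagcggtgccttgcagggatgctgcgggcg
TAP1: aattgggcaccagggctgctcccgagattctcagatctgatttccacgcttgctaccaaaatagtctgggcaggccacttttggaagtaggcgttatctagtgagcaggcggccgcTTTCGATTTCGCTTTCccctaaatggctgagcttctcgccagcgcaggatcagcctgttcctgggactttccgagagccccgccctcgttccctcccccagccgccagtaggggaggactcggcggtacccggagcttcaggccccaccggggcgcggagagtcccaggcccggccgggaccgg
The IFI44L window held the ISRE core at 2 places, IFI44, ISG20 and PSMB10 each held it once, and PSMB9, STAT2 and IFI35 held none, so that 4 of the 7 called members had it. The matches of the TAP1 window overlap each other and lie between the TAP1 and PSMB9 start sites. A window was found for 32 of the 39 members, with DDX58 listed as RIGI. The core was present in 22 of these 32 (68.8%), 17 of 24 antiviral and 5 of 8 in the other arm, against 4.38% of 27305 genes with a window. The GAS motif, searched on both strands, was present in 10 of 32 members (31.2%) and in 9.38% of all genes. These matches are letters only and do not show binding.

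The members were expressed at low levels. Values are TPM, which correct for transcript length and so allow levels of different genes to be compared. Of the 29 antiviral rows, 12 averaged under 1 TPM over the 16 libraries, 14 from 1 to 10 TPM and 3 from 10 to 100 TPM. In the other arm 7 rows averaged 1 to 10 TPM, 3 from 10 to 100 TPM and 1 over 100 TPM. That one was B2M, the light chain of MHC class I, at 215 to 386 TPM. TAP2 is present under 2 identifiers, of which ENSG00000250264 is a readthrough transcript sharing 2064 exon bases with TAP2 in GENCODE 29, so the tables held 40 rows. A filter of at least 1 TPM in at least 2 libraries was passed by 16967 genes and 32 member rows, 21 antiviral and all 11 of the other arm. The 8 members below it were the RNA sensor IFIH1, IFIT2, OAS2, IFITM1, BST2, MX1, IFI27 and XAF1, and none of these exceeded 1.26 TPM in any library.

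TPM keep no read totals, so the depth of the libraries is unknown. A set of 6 small RNAs took 42.5% (12 h replicate 1) to 64.1% (48 h replicate 1) of all TPM, which changes the scale of all other genes, so each result was also computed with TMM scaling, which aligns libraries on the bulk of their genes. In 14 libraries 29278 to 31187 genes were at 0, while the replicate 2 libraries of 36 and 48 h had 36116 and 36294 such genes. Of 9 markers of A549 epithelium, 8 passed the filter, with a sum of 2209 to 6448 TPM, while the alveolar marker SFTPB never exceeded 0.64 TPM. Of 12 leukocyte markers 3 passed (CD14, CD68 and LYZ), with a sum of 5.57 to 14.5 TPM over all 12, and LILRA4, a marker of the plasmacytoid dendritic cells that make interferon, was 0 in all 16. Of 7 fibroblast and endothelial markers 3 passed, with a sum of 1.61 to 10.7 TPM. In such bulk RNA, fewer cells expressing a gene and less RNA per cell cannot be told apart.

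**Figure D1:**
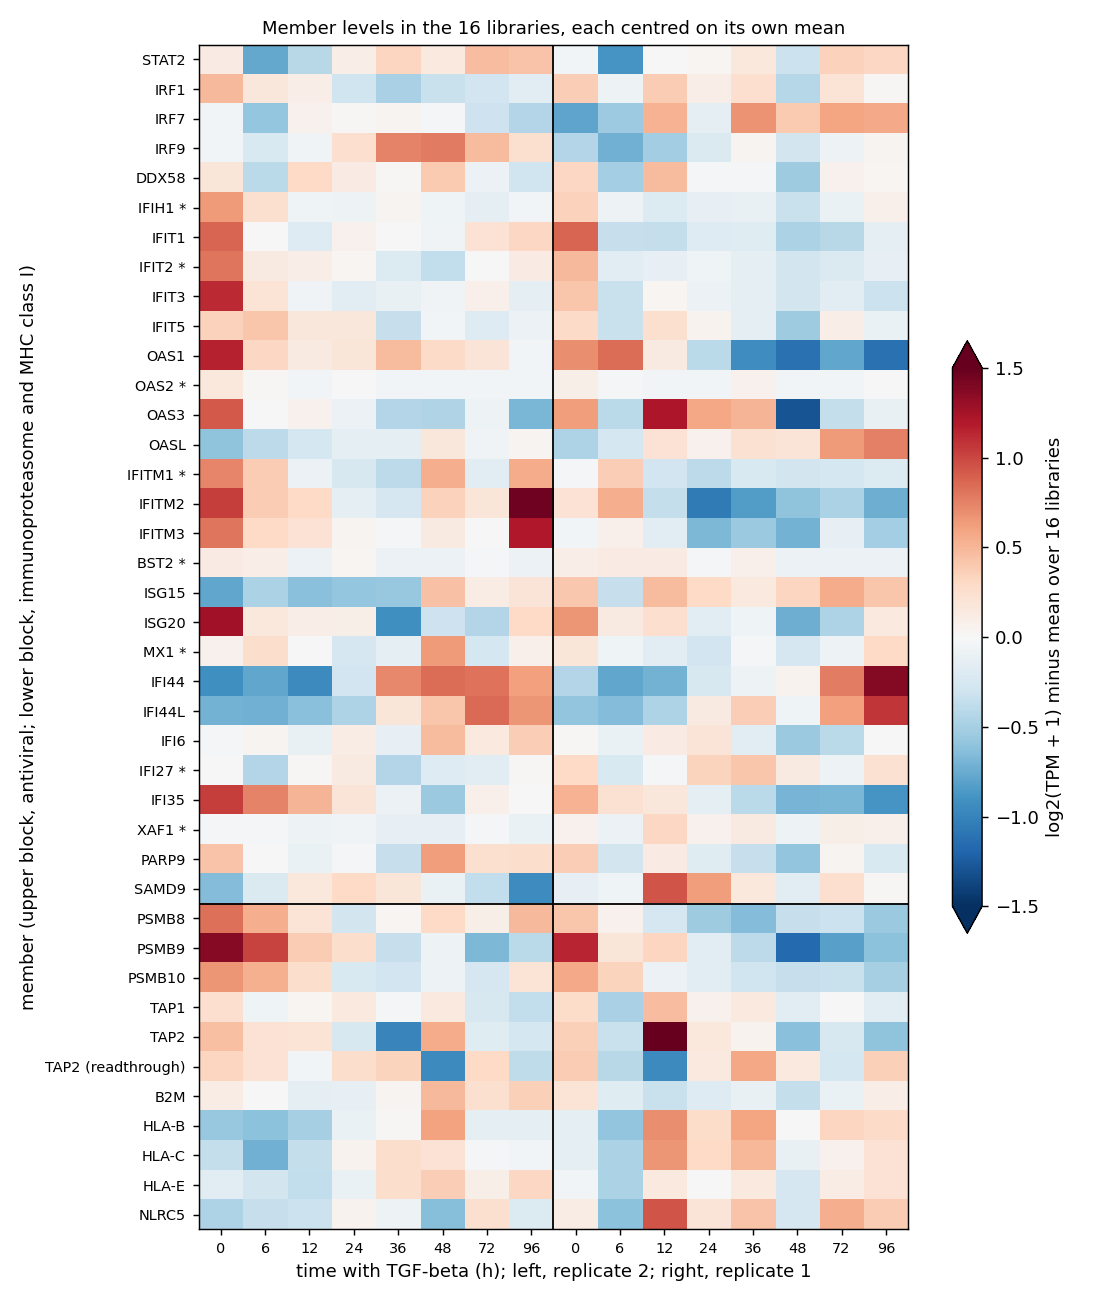
Levels of all 40 member rows in the 16 libraries as log2(TPM + 1) minus the row's mean (colour), by time in hours, replicate 2 on the left and replicate 1 on the right; asterisks mark the 8 rows below the filter. IFI44 and IFI44L are lowest at 0 to 12 h and PSMB8, PSMB9 and PSMB10 highest at 0 h in both series.

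The members did not change as a block between late and early times of the course. The 10 libraries of 24 to 96 h were compared with the 6 of 0 to 12 h with limma on log2(TPM + 1), adjusted over 16967 genes by Benjamini-Hochberg, and calls were made below an adjusted p of 0.05. Of 32 rows 3 were called higher at 24 to 96 h, where 2.34% of all genes were, and 4 lower, where 7.86% of all genes were. The higher ones were IFI44, IFI44L and STAT2, all antiviral, and the lower ones ISG20 and IFI35 of the antiviral arm and PSMB9 and PSMB10 of the immunoproteasome. A fit with the replicate number as a block, since equal numbers deviated together, called 5 higher and 6 lower, where 3.76% and 11.2% of all genes were called. The additions were OASL and IRF9 as higher and OAS1 and PSMB8 as lower. IFI44, IFI44L and OASL passed the filter only through late libraries. IFIT1 passed it only through 0 h and IFIT3 only through 0 and 6 h, so the counts over rows past the filter are descriptions. In the 2 replicate series taken apart, 26 of the 32 rows had the same sign. The share of all genes with equal signs was not counted, so this count shows nothing particular to the members.

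**Figure D2:**
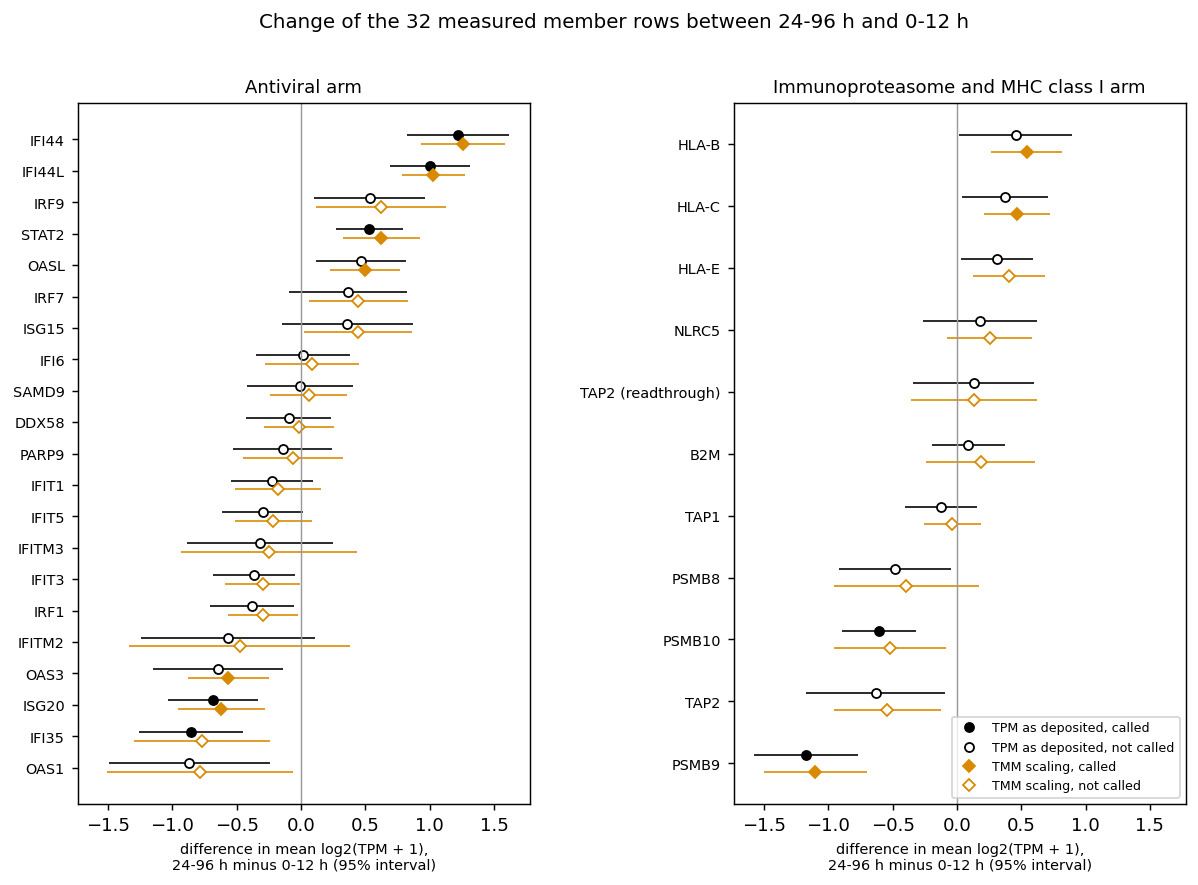
Difference in mean log2(TPM + 1), 24 to 96 h minus 0 to 12 h, for the 32 rows past the filter, with 95% intervals, for TPM as deposited (circles) and after TMM scaling (diamonds); filled symbols are called at an adjusted p below 0.05. IFI44 (1.22) and IFI44L (1.0) lie farthest right and PSMB9 (-1.17) farthest left as deposited, and the class I chains lie right of 0.

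Among the transcription factors, STAT2, a subunit of the ISRE-binding complex, was higher at 24 to 96 h than at 0 to 12 h. Lists of 8 values run through 0, 6, 12, 24, 36, 48, 72 and 96 h here and below. STAT2 read 16.9, 8.64, 11.4, 16.7, 19.6, 17.3, 21.7 and 21.2 TPM in replicate 2 and 14.96, 7.92, 15.5, 15.8, 17.4, 12.2, 20.02 and 19.4 TPM in replicate 1. In both series the lowest library was that of 6 h and the highest that of 72 h. The 0 h values lay near those of 24 h, and without the block STAT2 was not called against 0 h at any time in the TPM as deposited. The difference between 24 to 96 h and 0 to 12 h was 0.53 (SE 0.12, adjusted p = 0.0157 by limma). The call was lost without 0 h replicate 1, 0 h replicate 2 or 6 h replicate 2, with adjusted p of up to 0.0603. IRF9, the DNA-binding subunit of the same complex, read 9.58, 8.30, 9.50, 12.1, 17.3, 17.8, 14.2 and 11.9 TPM in replicate 2 and 7.06, 5.65, 6.62, 8.38, 10.2, 8.03, 9.38 and 10.2 TPM in replicate 1. Replicate 2 exceeded replicate 1 at all 8 times, and within each series every late value lay above every early one. How many of all genes do so was not counted. With both series together the late and early values of IRF9 overlapped, at 8.03 to 17.8 TPM and 5.65 to 9.58 TPM. Its difference was 0.54 (SE 0.20, adjusted p = 0.114 by limma, and 0.0103 with the replicate block). A neighbouring readthrough gene, AL136295.5, shares 1838 exon bases with IRF9 on the same strand, so its reads are uncertain. IRF7, which drives transcription of type I interferons, had a difference of 0.37 (adjusted p = 0.335), and IRF1, induced mainly by interferon gamma, one of -0.38 (adjusted p = 0.136 by limma). IRF7 ranged over 3.03 to 7.66 TPM at 24 to 96 h and 2.15 to 6.80 TPM at 0 to 12 h. IRF1 ranged over 6.03 to 10.7 TPM at 24 to 96 h and 8.31 to 12.7 TPM at 0 to 12 h.

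The neighbouring genes IFI44 and IFI44L on chromosome 1, whose proteins are markers of a type I interferon response, rose most. IFI44 read 0.11, 0.22, 0.08, 0.72, 2.45, 2.74, 2.70 and 2.22 TPM in replicate 2 and 0.55, 0.22, 0.28, 0.77, 0.99, 1.18, 2.57 and 4.43 TPM in replicate 1. All 10 late libraries, 0.72 to 4.43 TPM, lay above all 6 early ones, 0.08 to 0.55 TPM, a separation in this direction that 0.271% of all genes past the filter showed. IFI44 and IFI44L passed that filter only through late libraries, so the adjusted p of a fit of all genes with no filter is given as well. The difference was 1.22 (SE 0.18, adjusted p = 0.00161 by limma, and 0.00838 with no filter). IFI44L read 0.01, 0, 0.07, 0.20, 0.87, 1.21, 1.97 and 1.61 TPM in replicate 2 and 0.10, 0.05, 0.20, 0.81, 1.14, 0.58, 1.53 and 2.48 TPM in replicate 1. Late values had a median of 1.18 TPM and early ones of 0.06 TPM, and the groups met at 0.20 TPM. Its difference was 1.0 (SE 0.14, adjusted p = 0.00117 by limma, and 0.00422 with no filter). Within replicate 2 and replicate 1 the differences were 1.43 and 1.02 for IFI44 and 1.02 and 0.99 for IFI44L.

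Of the IFIT genes, whose proteins bind viral RNA, IFIT1, IFIT2 and IFIT3 had their highest value at 0 h in both series. IFIT1 read 1.67, 0.46, 0.28, 0.52, 0.47, 0.41, 0.69 and 0.81 TPM in replicate 2 and 1.67, 0.15, 0.14, 0.28, 0.29, 0.05, 0.09 and 0.32 TPM in replicate 1. Both 0 h libraries stood at 1.67 TPM, and the highest later one at 0.81 TPM. IFIT3 read 3.01, 1.14, 0.78, 0.66, 0.71, 0.79, 0.96 and 0.69 TPM in replicate 2 and 1.47, 0.47, 0.89, 0.75, 0.67, 0.53, 0.66 and 0.48 TPM in replicate 1. Again the largest step in each series lay between 0 and 6 h. IFIT2, below the filter, had 1.26 and 0.81 TPM at 0 h in replicates 2 and 1 and at most 0.42 TPM afterwards. Over 24 to 96 h against 0 to 12 h the differences were -0.23 for IFIT1, -0.37 for IFIT3 and -0.30 for IFIT5 and 0 of these 3 were called by limma. The sensor DDX58, also called RIG-I, stayed between 2.10 and 4.91 TPM late and 2.16 and 5.25 TPM early. The other RNA sensor, IFIH1, had 1.23 and 0.81 TPM at 0 h in replicates 2 and 1 and at most 0.68 TPM afterwards.

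The OAS genes, whose enzymes make the oligoadenylates that activate RNase L, did not move one way. OAS1 read 12.9, 6.80, 5.89, 6.12, 7.72, 6.63, 6.17 and 5.12 TPM in replicate 2 and 9.15, 10.2, 5.87, 3.74, 2.28, 1.90, 2.67 and 1.88 TPM in replicate 1. The late minus early difference was -0.31 in replicate 2 and -1.42 in replicate 1. The joint difference was -0.87 (SE 0.29, adjusted p = 0.0806 by limma and 0.0149 with the block). OAS3 read 11.9, 5.81, 6.15, 5.41, 4.01, 3.98, 5.46 and 3.23 TPM in replicate 2 and 9.54, 4.17, 14.8, 9.17, 8.75, 1.78, 4.33 and 5.34 TPM in replicate 1. The highest library of all was 12 h replicate 1, also the library with the smallest share of small RNAs. Its difference was -0.65 (adjusted p = 0.103 by limma), and -0.56 (adjusted p = 0.0240) with TMM scaling. OASL, which lacks that enzymatic activity and assists RIG-I, read 0.10, 0.28, 0.40, 0.53, 0.53, 0.88, 0.61 and 0.72 TPM in replicate 2 and 0.22, 0.40, 0.95, 0.76, 0.97, 0.91, 1.60 and 1.83 TPM in replicate 1. Replicate 1 was above replicate 2 at all 8 times, and both series had their low point at 0 h. Its difference was 0.47 (SE 0.16, adjusted p = 0.0907 by limma and 0.0291 with the block). OASL passed the filter only through the 72 and 96 h libraries of replicate 1, so its calls as higher at late times are descriptions. OAS2 was 0 in 9 libraries.

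Among other effectors ISG20 and IFI35 fell. ISG20, an exonuclease that degrades viral RNA, read 6.51, 2.48, 2.35, 2.33, 0.65, 1.51, 1.31 and 2.85 TPM in replicate 2 and 3.94, 2.44, 2.71, 1.78, 1.98, 0.88, 1.27 and 2.46 TPM in replicate 1. The 0 h library was the highest in both series. Its difference was -0.68 (SE 0.16, adjusted p = 0.0196 by limma). IFI35, a partner of the interferon-induced protein NMI, read 14.5, 11.7, 9.79, 7.65, 6.11, 4.16, 6.96 and 6.57 TPM in replicate 2 and 9.88, 7.84, 7.49, 5.83, 4.72, 3.67, 3.70 and 3.10 TPM in replicate 1. Replicate 2 was above replicate 1 at all 8 times, and each series declined to 48 h. Its difference was -0.85 (SE 0.19, adjusted p = 0.0127 by limma), and adjusted p = 0.0590 with TMM scaling. Both calls were lost without 0 h replicate 2 or 6 h replicate 2, with adjusted p of up to 0.0910 for ISG20 and 0.0659 for IFI35. ISG15, a ubiquitin-like modifier, read 1.94, 2.64, 2.28, 2.39, 2.42, 5.88, 4.49 and 4.80 TPM in replicate 2 and 5.69, 2.98, 6.06, 5.22, 4.62, 5.35, 6.43 and 5.77 TPM in replicate 1. Its levels were lower in replicate 2 at 7 of 8 times, 48 h being the exception, and its difference of 0.36 (adjusted p = 0.403 by limma) was not called. The remaining effectors IFI6, PARP9 and SAMD9 had differences of 0.02, -0.14 and -0.01, 0 of them called. MX1, BST2, IFI27 and XAF1 stayed at or below 1.14, 0.16, 0.80 and 0.36 TPM.

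IFITM2 and IFITM3, membrane proteins that block virus entry, differed between the replicate series and were not called between times. IFITM2 read 31.2, 19.3, 18.2, 13.1, 12.2, 18.8, 16.6 and 41.9 TPM in replicate 2 and 17.2, 21.7, 11.2, 6.51, 7.70, 9.25, 10.2 and 8.42 TPM in replicate 1. The 96 h library of replicate 2 was the highest and that of 24 h replicate 1 the lowest. IFITM3 read 7.64, 5.09, 4.77, 4.11, 3.91, 4.43, 3.93 and 10.4 TPM in replicate 2 and 3.83, 4.22, 3.45, 2.11, 2.36, 2.03, 3.56 and 2.47 TPM in replicate 1. Replicate 2 was higher at all 8 times for IFITM3. Differences between late and early libraries were -0.57 for IFITM2 (adjusted p = 0.307 by limma) and -0.32 for IFITM3 (adjusted p = 0.520). The IFITM genes are near-identical neighbours, and IFITM1 shares 351 exon bases with IFITM2, so the split of reads between them is uncertain.

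**Figure D3:**
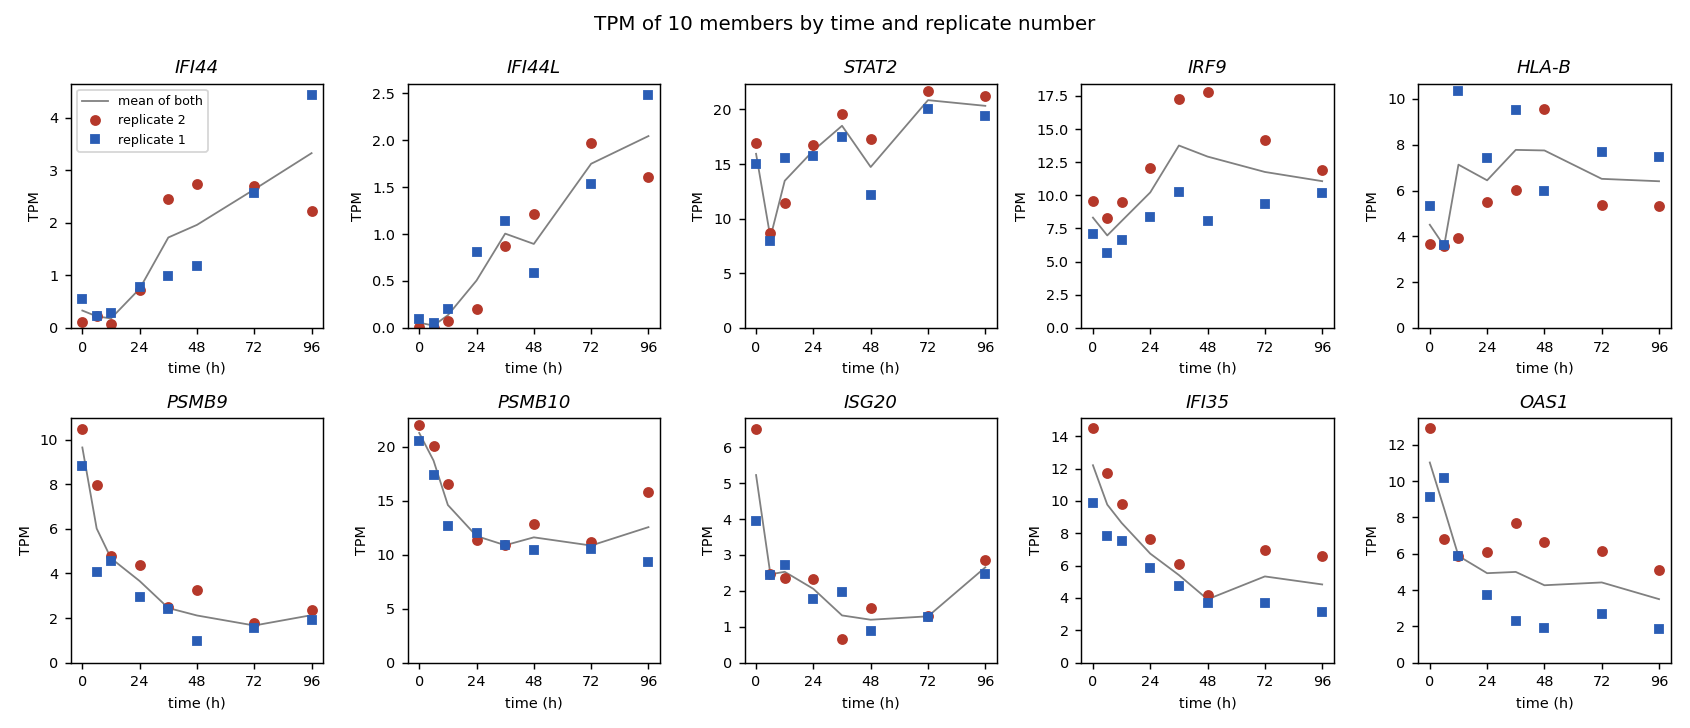
TPM of 10 members by time in hours, replicate 2 as circles, replicate 1 as squares, and their mean as a line. IFI44 and IFI44L climb to 4.43 and 2.48 TPM at 96 h replicate 1, while PSMB9, PSMB10, ISG20, IFI35 and OAS1 have higher values at 0 h than at 72 h in both series.

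Of the 3 immunoproteasome subunits PSMB9 and PSMB10 fell, and PSMB8 passed the test only with the replicate block. PSMB9 read 10.5, 7.98, 4.79, 4.36, 2.51, 3.24, 1.79 and 2.36 TPM in replicate 2 and 8.82, 4.05, 4.57, 2.96, 2.39, 0.99, 1.54 and 1.90 TPM in replicate 1. Each series started at its highest value, and late values of 0.99 to 4.36 TPM met early values of 4.05 to 10.5 TPM only at their edges. The difference was -1.17 (SE 0.19, adjusted p = 0.00229 by limma), called in 16 of 16 fits that left out a library. PSMB10 read 21.99, 20.1, 16.5, 11.4, 10.9, 12.8, 11.2 and 15.8 TPM in replicate 2 and 20.6, 17.3, 12.7, 12.1, 10.9, 10.4, 10.5 and 9.34 TPM in replicate 1. It was highest at 0 h in both series, and its difference was -0.61 (SE 0.13, adjusted p = 0.0126 by limma). With TMM scaling the adjusted p was 0.118, and without 0 h replicate 2 or 6 h replicate 2 the call was lost, with adjusted p of up to 0.0590. PSMB8 read 15.5, 12.6, 9.73, 6.71, 8.51, 10.4, 8.89 and 12.1 TPM in replicate 2 and 11.4, 8.76, 6.82, 5.45, 4.92, 6.32, 6.46 and 5.32 TPM in replicate 1. Its minimum lay at 24 h in replicate 2 and 36 h in replicate 1, and its difference was -0.48 (SE 0.20, adjusted p = 0.160 by limma and 0.0184 with the block). PSMB8 and PSMB9 share 139 exon bases on opposite strands, and whether counting used strand is not given in the sources used here.

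The constitutive subunits fell as well, so the ratio of each pair was taken within libraries, where the scale of a library cancels. PSMB5, PSMB6 and PSMB7 had differences of -0.39, -0.41 and -0.33 (adjusted p = 0.0310, 0.0431 and 0.0304 by limma), where 7.86% of all genes were called lower. With TMM scaling, where 7.49% were, 0 of the 3 were called. PSMB9 stood at 1.2% to 3.21% of PSMB6 at 24 to 96 h, median 2.0%, and at 3.13% to 6.73% at 0 to 12 h, median 4.29%. The ranges overlapped only between 3.13% and 3.21%. PSMB10 stood at a median of 12.2% of PSMB7 late and 16.7% early, and PSMB8 at 11% of PSMB5 late and 11.8% early, with ranges that overlapped widely. These ratios compare RNA of genes that replace each other in the particle and were not tested.

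**Figure D4:**
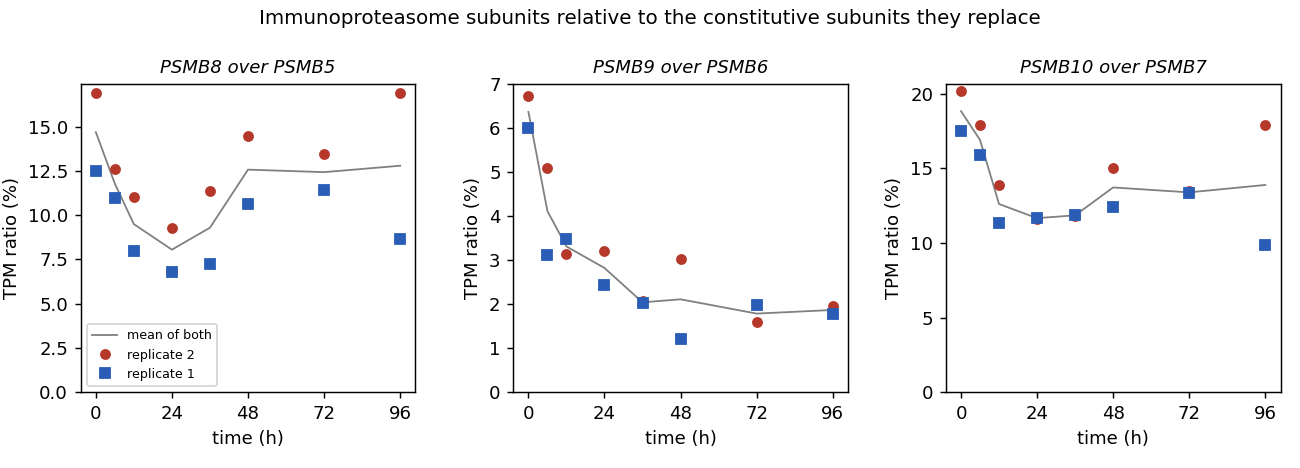
TPM of each immunoproteasome subunit as a percentage of the constitutive subunit it replaces, by time in hours, replicate 2 as circles, replicate 1 as squares, mean as a line. PSMB9 over PSMB6 declines to a late median of 2.0%, against 4.29% early, while PSMB8 over PSMB5 is lowest at 24 h in both series.

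No gene of the transporter or the class I chains was called between late and early libraries in the TPM as deposited, and whether they differed from the immunoproteasome was not tested. TAP1, the neighbour of PSMB9, had 5.68 to 8.60 TPM late, median 7.58, and 5.20 to 10.9 TPM early, median 8.58. Its difference was -0.13 (95% interval -0.41 to 0.15). TAP2 had a difference of -0.63 (adjusted p = 0.136 by limma), with its highest value, 9.41 TPM, in 12 h replicate 1, where the readthrough row stood at 0. HLA-B, a classical heavy chain, had 5.33 to 9.54 TPM late, median 6.71, and 3.56 to 10.3 TPM early, median 3.81 (difference 0.46, adjusted p = 0.189 by limma). HLA-C, another classical heavy chain, had 20.1 to 31.2 TPM late, median 24.1, and 12.9 to 35.0 TPM early, median 16.8 (difference 0.38, adjusted p = 0.154). In both genes the early maximum was 12 h replicate 1, and the next early values, 5.33 and 19.6 TPM, were those of 0 h replicate 1. HLA-E, whose product signals to natural killer cells, had 19.5 to 30.5 TPM late, median 25.7, and 16.6 to 26.0 TPM early, median 20.0 (difference 0.31, adjusted p = 0.155 by limma). B2M had a difference of 0.09 (95% interval -0.19 to 0.37). With TMM scaling, where 5.22% of all genes were called higher and 7.49% lower, 6 members were higher and 3 lower. HLA-B and HLA-C were among the higher ones, with differences of 0.54 and 0.47 (adjusted p = 0.0159 and 0.0226 by limma), and HLA-E had 0.40 (adjusted p = 0.0609). NLRC5, the transactivator of class I genes, had 1.0 to 3.55 TPM late and 1.04 to 5.01 TPM early (difference 0.18, adjusted p = 0.681). Class I genes are alike in sequence and vary between people, so the reads given to each are uncertain.

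Taken as a whole, each arm had a small median difference, which was not tested. The median difference between 24 to 96 h and 0 to 12 h was -0.14 over 21 antiviral rows, 0.09 over 11 rows of the other arm and -0.11 over all 16967 genes. With TMM scaling these were -0.06, 0.13 and -0.03. Taken by series, the antiviral medians were 0.01 in replicate 2 and -0.20 in replicate 1, and those of the other arm -0.14 and -0.03. Of 21 antiviral rows 8 lay above 0, and of the 11 others 6 did, against 34.0% of all genes. The sum of TPM was 76.8 to 165 for the antiviral arm, highest in 0 h replicate 2, and 289 to 492 for the other, highest in 48 h replicate 2, and both were lowest in 48 h replicate 1. The highest value fell at 0 h in both series for 4 of 21 antiviral rows past the filter (19.0%), IFI35, IFIT1, IFIT3 and ISG20. It did so for 3 of 11 rows of the other arm (27.3%), the immunoproteasome subunits, and for 10.9% of all genes past the filter. IFIT1 passed that filter only through the 0 h libraries, and IFIT3 only through these and 6 h replicate 2, so these shares are descriptions.

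Compared with 0 h, calls began at 36 h and were few. Every one of these comparisons rests on the same 2 libraries of 0 h. At 6, 12 and 24 h 0 of 32 rows were called by limma. The share of all genes called was 0% higher and 0.0177% lower at 6 h, 0.253% and 0.13% at 12 h, and 0.613% and 0.595% at 24 h. With TMM scaling the counts were also 0 at these times. The smallest p belonged to STAT2 at 6 h (-0.87, SE 0.23, adjusted p = 0.249 by limma), to IFIT1 at 12 h (-1.14, SE 0.29, adjusted p = 0.119) and to PSMB9 at 24 h (-1.20, SE 0.36, adjusted p = 0.158). With the replicate block IFIT1 was called at 12 h (adjusted p = 0.0221), and IFIT1, PSMB8 and PSMB9 at 24 h (adjusted p = 0.0454, 0.0296 and 0.0384). IFIT1 passed the filter only through both 0 h libraries, the group it is compared with, so its calls against 0 h are descriptions. The background with the block was 1.92% higher and 0.684% lower at 12 h, and 1.87% higher and 1.92% lower at 24 h.

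At 36 h ISG20 (-1.46, SE 0.31) and PSMB9 (-1.62, SE 0.36) were lower, with adjusted p of 0.0318 and 0.0363 by limma, where 1.33% of all genes were lower. With TMM scaling these 2 were lower and IFI44L higher (0.88, adjusted p = 0.0455 by limma), where 1.23% of all genes were lower and 2.39% higher. At 48 h 5 members were lower, where 6.8% of all genes were, and 0 higher, where 0.796% were. They were PSMB9 (-1.87), OAS3 (-1.65), ISG20 (-1.49), IFI35 (-1.40) and IFIT1 (-1.13), with adjusted p of 0.0144 to 0.0446 by limma, and the median of all genes was -0.46 at that time. With TMM scaling ISG20, IFI35 and IFIT1 were not called at 48 h (adjusted p = 0.0616, 0.334 and 0.0995), and the balance of calls turned to 5 higher and 2 lower, where 2.63% and 2.14% of all genes were. The higher ones were IFI44 (1.39), HLA-B (1.17), IFI44L (0.99), OASL (0.93) and HLA-C (0.89), with adjusted p of 0.0190 to 0.0489 by limma. IFI44, IFI44L and OASL passed the filter only through late libraries, and TMM scaling was not fitted without the filter. Their calls with TMM scaling at 36 and 48 h are therefore descriptions. TMM scaling with the block gave 10 higher and 4 lower at 48 h, where 5.63% and 5.24% of all genes were. At 72 h IFI44 (1.47) and IFI44L (1.38) were higher, where 0.831% of all genes were, and ISG20 (-1.41) and PSMB9 (-2.0) lower, where 1.74% were. At 96 h IFI44 (1.67, SE 0.36, adjusted p = 0.0324 by limma) and IFI44L (1.52, SE 0.28, adjusted p = 0.0154) were higher, where 0.536% of all genes were. PSMB9 was lower at 96 h (-1.77, SE 0.36, adjusted p = 0.0269 by limma), where 1.26% of all genes were. The F test over the whole course called IFI44L (F = 9.72) and IFI44 (F = 8.51), with adjusted p of 0.0283 and 0.0421, where 1.72% of all genes were called. With no filter IFI44L was called at 72 and 96 h (adjusted p = 0.0416 and 0.0336 by limma) and IFI44 was not (adjusted p = 0.117 and 0.0874), nor was either over the course (adjusted p = 0.0707 for IFI44L and 0.14 for IFI44).

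The replicate block raised the counts at 36, 48, 72 and 96 h to 6, 9, 7 and 5 and over the course to 5. Background shares with the block were 2.48% higher and 3.15% lower at 36 h, 1.7% and 14.9% at 48 h, 2.08% and 4.22% at 72 h, 1.5% and 3.31% at 96 h, and 6.13% over the course. It added PSMB10 at 36, 48 and 72 h, with adjusted p of 0.0342, 0.030 and 0.0319. It also added IFI35 at 36, 72 and 96 h, with adjusted p of 0.0246, 0.0178 and 0.0105. Each call against 0 h was lost in at least 2 of the 16 fits that left out a library. That of PSMB9 at 72 h was lost without 0 h replicate 1, 72 h replicate 1 or 0 h replicate 2, with adjusted p of up to 0.170, and that of ISG20 at 48 h, lost in the fewest fits, without 48 h replicate 1 or 0 h replicate 2, with adjusted p of up to 0.228.

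Some members also differed between the replicate series, with time held equal. In replicate 2 against replicate 1, 5 of 32 rows were called higher, where 2.48% of all genes were, and 1 lower, where 8.32% were. The higher ones were IFITM2 (0.83), IFITM3 (0.67), PSMB8 (0.55), IRF9 (0.54) and IFI35 (0.48), with adjusted p of 0.0137 to 0.0267 by limma. ISG15 was lower (-0.57, SE 0.16, adjusted p = 0.0427 by limma). With TMM scaling 9 were higher and 0 lower, where 6.7% and 9.91% of all genes were. That fit added OAS1, PSMB9, PARP9 and IFIT1 to the higher ones, and ISG15 was no longer called (-0.43, adjusted p = 0.0510). The calls of IFITM2, IRF9 and PSMB8 held in 16 of 16 fits that left out a library, whereas those of IFITM3, IFI35 and ISG15 held in 10, 6 and 4. The labels do not say what a replicate number stands for.

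Among the signalling genes upstream of the members, the kinase JAK1 and IL10RB were called lower at 24 to 96 h, where 7.86% of all genes were. JAK1 had a difference of -0.81 (adjusted p = 0.00800 by limma) and IL10RB, a chain of the lambda interferon receptor, of -0.51 (adjusted p = 0.0281). IFNAR1 and IFNAR2, which form the receptor for type I interferons, had medians of 8.62 and 5.01 TPM late and 10.6 and 7.22 TPM early, and differences of -0.33 and -0.41 (adjusted p = 0.30 and 0.192 by limma). The gamma interferon receptor chains IFNGR1 and IFNGR2 had differences of -0.03 and -0.20, and IFNLR1 one of -0.27, with 0 of the 3 called. TYK2 had a difference of -0.24 and JAK2 of -0.03, not called. Of 7 negative regulators, SOCS1 and SOCS3 among them, 0 were called by limma with or without the block, and of 10 sensing genes and adaptors 0 were called, or 1, TREX1 (adjusted p = 0.0377), with the block. Of all genes 2.34% were called higher and 7.86% lower, or 3.76% and 11.2% with the block.

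Of 12 interferon genes looked up by symbol, 9 were matched and 3 passed the filter. IFNB1, which encodes interferon beta, did not exceed 0.09 TPM, IFNL1 0.03 TPM and IFNG 0.19 TPM. IFNL2 and IFNL3 were 0 in all 16 libraries. IFNA1 had 2.63 to 13.7 TPM late, median 8.58, and 0.79 to 5.22 TPM early, median 1.46 (difference 1.55, SE 0.27, adjusted p = 0.00402 by limma). IFNE, an epithelial interferon, had 6.20 to 41.2 TPM late, median 24.0, and 2.52 to 21.9 TPM early, median 7.19 (difference 1.34, SE 0.37, adjusted p = 0.0377 by limma). IFNA1 has near-identical relatives in the same cluster on chromosome 9, so its reads are uncertain. IFNE lies within the long non-coding gene MIR31HG on the same strand, without shared exon bases. MIR31HG had 12.8 to 38.8 TPM late and 3.73 to 13.99 TPM early (difference 1.61, adjusted p = 0.000338 by limma). How much of the IFNE signal comes from MIR31HG RNA was not tested.

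Genes of the same families outside the 39 members were read from lists of the pathway. Of 33 other interferon-stimulated genes past the filter, 0 were called higher, where 2.34% of all genes were, and 3 lower, where 7.86% were, at 24 to 96 h, with a median difference of -0.21. A count of 3 of 33 is near that background. The lower ones were USP18, which removes ISG15 from proteins (-0.67, adjusted p = 0.0109 by limma), the aminopeptidase LAP3 (-0.50, adjusted p = 0.0214) and APOL1 (-0.58, adjusted p = 0.0288). With the block 5 were lower, where 11.2% of all genes were, HERC6 and GBP1 being added. With TMM scaling 1 was higher (SAMD9L, 0.41, adjusted p = 0.0262 by limma), where 5.22% of all genes were, and 5 lower, where 7.49% were. RSAD2, CXCL10 and MX2, which respond strongly to interferon, did not exceed 0.14, 0 and 0.21 TPM. Of 16 other antigen processing and class I genes 1 was called, the proteasome activator subunit PSME2, which fell (-0.73, adjusted p = 0.00723 by limma), where 7.86% of all genes were called lower. CD274, which encodes the checkpoint ligand PD-L1, had 0.26 to 6.15 TPM late and 0.27 to 1.64 TPM early (difference 0.84, adjusted p = 0.182 by limma and 0.0395 with the block).

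Among MHC class II genes HLA-DRA was 0 in all 16 libraries, and CIITA, the class II transactivator, did not exceed 1.06 TPM. Of 5 class II genes past the filter HLA-DMB (-1.49, adjusted p = 0.0288 by limma) and RFX5 (-0.45, adjusted p = 0.0428) were lower at 24 to 96 h. At those times 7.86% of all genes were lower. Of the 5 class II genes 0 were higher, where 2.34% of all genes were.

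Some epithelial markers fell at the same times. Of 8 past the filter, 4 were lower at 24 to 96 h, where 7.86% of all genes were, CDH1 (-1.99), KRT19 (-2.17), KRT18 (-1.11) and KRT8 (-1.07), with adjusted p of up to 0.00248 by limma. EPCAM (-0.63), CLDN1 (-0.54), KRT7 (-0.48) and MUC1 (-0.05) were not called. The part of these markers in the fall of the immunoproteasome, ISG20 and IFI35, and in the rise of IFI44 and IFI44L, was not tested.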

How the data were processed

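RNA was measured in 16 A549 libraries, 2 at each of 8 times. The authors deposited TPM per gene, in a separate table for replicates 1 and 2. Per the submitters' processing notes, Bowtie and RSEM were used, with no versions given; genome build and annotation: not given in the sources used here. Columns were mapped to libraries by time and replicate number. Tests used log2(TPM + 1), a scale that understates changes of low genes, with limma 3.58.1 in R 4.3.3: 1 mean per time over all 16 libraries, moderation with a mean trend, two-sided, Benjamini-Hochberg adjustment over the 16967 genes that reached 1 TPM in 2 or more libraries, called at an adjusted p below 0.05. The script was tested on simulated data. With 2 against 2 libraries the smallest p of an exact permutation test is 0.333. Equal replicate numbers shared deviations from the time means in 28 of 28 pairs of times (correlation above 0.1, lowest 0.128, median 0.438), so a block for the number was an alternative. The others were TMM scaling, TMM with the block, a pseudocount of 0.1, no filter, TPM rescaled without 6 small RNAs and mitochondrial transcripts, and each library left out. Leaving out both 48 h libraries was added after seeing the data. No 2 libraries held identical values. Promoter motifs were searched with Python 3.11.15. The 39 members and all lists were chosen with earlier results of these data known. Per-library TPM are printed for members called in any comparison, with or without the block, and ranges for the others.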

Additional observations from a re-analysis of the deposited data

How the results depend on the processing

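No call made without the block on the TPM as deposited changed sign past the threshold under any alternative. Members called only under an alternative were not checked for sign. With the replicate block the calls numbered 1, 3, 6, 9, 7 and 5 at 12, 24, 36, 48, 72 and 96 h against 0 h, 5 over the course and 11 for 24 to 96 h against 0 to 12 h, where the fit without it gave 0, 0, 2, 5, 4, 3, 2 and 7. TMM scaling with the block gave 3, 2, 9, 14 and 5 at 12, 24, 36, 48 and 96 h, with 10 of the 14 at 48 h higher where the TPM as deposited gave 0 higher, 9 over the course and 15 for the late against the early libraries. That fit called 3.56% of all genes higher and 1.37% lower at 12 h, and 4.67% and 2.1% at 24 h. The shares were 5.1% and 3.42% at 36 h, 5.63% and 5.24% at 48 h, and 3.97% and 3.18% at 96 h. Over the course 10.9% of all genes were called, and late against early 8.26% higher and 11.8% lower. A pseudocount of 0.1 left 1 call at 36 h. Without the filter on low values, which brings in far more genes, 1, 3, 2 and 1 were called at 36, 48, 72 and 96 h, 0 over the course, and 2 in replicate 2 against replicate 1. Leaving out 1 library gave 0 to 3 calls at 36 h, 0 to 7 at 48 h, 0 to 5 at 72 h, 0 to 4 at 96 h, 0 to 3 over the course, 3 to 10 for the late against the early libraries and 3 to 8 for replicate 2 against replicate 1, and 0 at 6, 12 and 24 h. Without both 48 h libraries, an alternative chosen after seeing the data, 6 members were called late against early. The share of all genes called was not counted for the pseudocount of 0.1, for no filter or for the fits that left out libraries. Whether the members moved more than other genes in those fits is therefore not known. Rescaling without small and mitochondrial RNAs moved the median late minus early difference of the MHC class I arm to 0.22, against 0.09 as deposited and -0.01 for all genes after rescaling. The cause of these shifts was not tested. TPM keep no depth, so precision of members under 1 TPM is unknown.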
